A study of Mus musculus with 2 samples.

Results

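The genes described here are 10 markers of primitive endoderm and of the basement membrane that this tissue lays down, measured in mouse embryonic stem (ES) cells with and without a knockout (KO) of Dnmt1. They were chosen by name, with every probe set that the array's annotation assigns to them, which came to 24 probe sets for 10 of the 18193 genes on the array. Gata4, Gata6, Hnf4a, Sox7, Sox17 and Foxa2 encode transcription factors, Dab2 an endocytic adaptor, and Sparc, Lama1 and Col4a1 proteins of the extracellular matrix. Total RNA of a control culture and of a Dnmt1 KO culture was hybridised to 1 Affymetrix Mouse Genome 430 2.0 array each. The titles call both mouse ES cells, and only the title separates the groups, since the source name of the KO sample also reads as a control. No differentiation or other treatment is named, and neither the Dnmt1 allele, strain, clone and passage nor any use of feeder cells was given in the sources used here. Dnmt1, the enzyme that copies DNA methylation to the new strand after replication, had signals of 1949.1 in the control and 262.1 in the KO culture.

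Primitive endoderm is the extraembryonic layer that forms beside the epiblast in the blastocyst, the tissue from which ES cells are derived. Gata6 and then Sox17, Gata4 and Sox7 mark its formation, and Foxa2 and Hnf4a belong to its visceral derivative, while its parietal derivative secretes the laminin and collagen IV of a thick basement membrane, Reichert's membrane. ES cultures can hold a few cells that enter this lineage. In RNA from a whole culture, fewer cells of a type and less RNA per cell cannot be told apart.

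Each value below is 1 measurement on 1 array, so the spread between cultures is unknown and no p-value is given. Signals are MAS5 values, a linear intensity that combines the probes of a probe set. An array's own median over all probe sets was used as its floor (control 60.9, KO 74.2), and a signal below it is treated as only a bound. The KO array was brighter for most genes, with a median log2 ratio of 0.43 (1.34-fold) over the 10995 genes above both floors, and log2 ratios below are KO over control after subtracting this shift (centred) unless they are called as deposited. As a technical scale, probe sets of the same gene differed with a pooled SD of 0.24 on the log2 scale over 4704 genes. That SD was 0.29 over the 1176 dimmest of these genes and 0.18 over the 1176 brightest, and the transcription factors, Lama1 and the dim Sparc probe set lie at or below the signals of the former.

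Promoter sequence was looked at because Dnmt1 acts on the CG dinucleotide. RefSeq promoter windows (assembly GRCm38.p6) covered 5 of the 10 genes, with 9 start sites in all. Methylation itself was not measured, so the sequences are a description of the substrate only. The 4 windows below are the 250 bases before a start of Sparc, the matrix gene with the highest ratio, of Foxa2, whose signal lay just above both floors, and of both starts of Hnf4a, whose probe sets disagreed. They are written 5′ to 3′ on the strand of the gene, with each CG in capitals.

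Sparc, chr11:55420081-55420330, minus strand: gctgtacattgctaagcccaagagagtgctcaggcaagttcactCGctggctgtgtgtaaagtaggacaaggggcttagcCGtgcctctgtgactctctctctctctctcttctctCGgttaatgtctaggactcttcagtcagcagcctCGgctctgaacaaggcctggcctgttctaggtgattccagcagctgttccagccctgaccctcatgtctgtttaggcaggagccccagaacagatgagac

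Foxa2, farthest upstream of its starts, chr2:148046970-148047219, minus strand: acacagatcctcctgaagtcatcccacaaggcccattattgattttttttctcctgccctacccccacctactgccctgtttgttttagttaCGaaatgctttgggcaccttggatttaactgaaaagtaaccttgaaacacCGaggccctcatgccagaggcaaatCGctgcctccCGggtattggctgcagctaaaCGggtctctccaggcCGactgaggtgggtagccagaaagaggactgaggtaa

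Hnf4a, upstream start, chr2:163506607-163506856, plus strand: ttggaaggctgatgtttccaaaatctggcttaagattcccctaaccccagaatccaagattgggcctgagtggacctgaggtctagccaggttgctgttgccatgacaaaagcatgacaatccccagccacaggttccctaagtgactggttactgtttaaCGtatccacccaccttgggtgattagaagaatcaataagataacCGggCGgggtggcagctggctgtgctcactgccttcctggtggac

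Hnf4a, downstream start, chr2:163546905-163547154, plus strand: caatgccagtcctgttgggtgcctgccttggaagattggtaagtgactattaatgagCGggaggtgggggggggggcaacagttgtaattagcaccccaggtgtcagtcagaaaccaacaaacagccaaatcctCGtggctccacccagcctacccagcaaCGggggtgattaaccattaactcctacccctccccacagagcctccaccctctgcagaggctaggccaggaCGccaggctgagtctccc

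The Sparc window holds 4 CG, the Foxa2 window 6, and the Hnf4a windows 3 and 4. Over all 32851 windows of this length in the RefSeq table the median was 6 CG, which none of the 4 exceeded. The remaining Foxa2 starts were richer, with 13 and 20 CG, while those of Dab2 had 2 and 17. The starts of Hnf4a lie 40298 bases apart, and the annotation does not say which transcripts each probe set of the gene detects. The Col4a1 window held the most of the 9, with 31 CG in 250 bases, and 5.19% of all windows hold at least as many. Col4a1 is transcribed head to head with Col4a2, the gene of its partner chain, and the RefSeq starts of the pair are 21 bases apart, so that both genes share the following bases of a CG-dense start region.

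Col4a1 and Col4a2, from one start to the other, chr8:11312805-11312826, strand of Col4a2: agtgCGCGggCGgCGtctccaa

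The letters GATAA, part of the sites that GATA factors bind, were searched on both strands of the 250 bases before each start. They occurred in 3 of the 9 windows, 1 each of Dab2, Foxa2 and Hnf4a, and in 22.6% of all windows. ACAAT, a core that Sox factors recognise, occurred in 1 of the 9, the upstream Hnf4a window, and in 27.7% of all windows. Their matches overlapped in 0 of the 9 windows, and a match or its absence describes only these letters.

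The transcription factors were dim on both arrays. Of their 14 probe sets, 7 lay below the floor on both arrays, 2 above it on both, 3 above it on the control array alone and 2 on the KO array alone. Their signals ran from 10.6 to 140.5 in the control and from 3.3 to 102 in the KO culture. Among all 34945 single-gene probe sets, 39.8% were below both floors and 53.4% above both. The arrays thus gave little signal for most of these primitive endoderm factors in either culture.

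**Figure D1:**
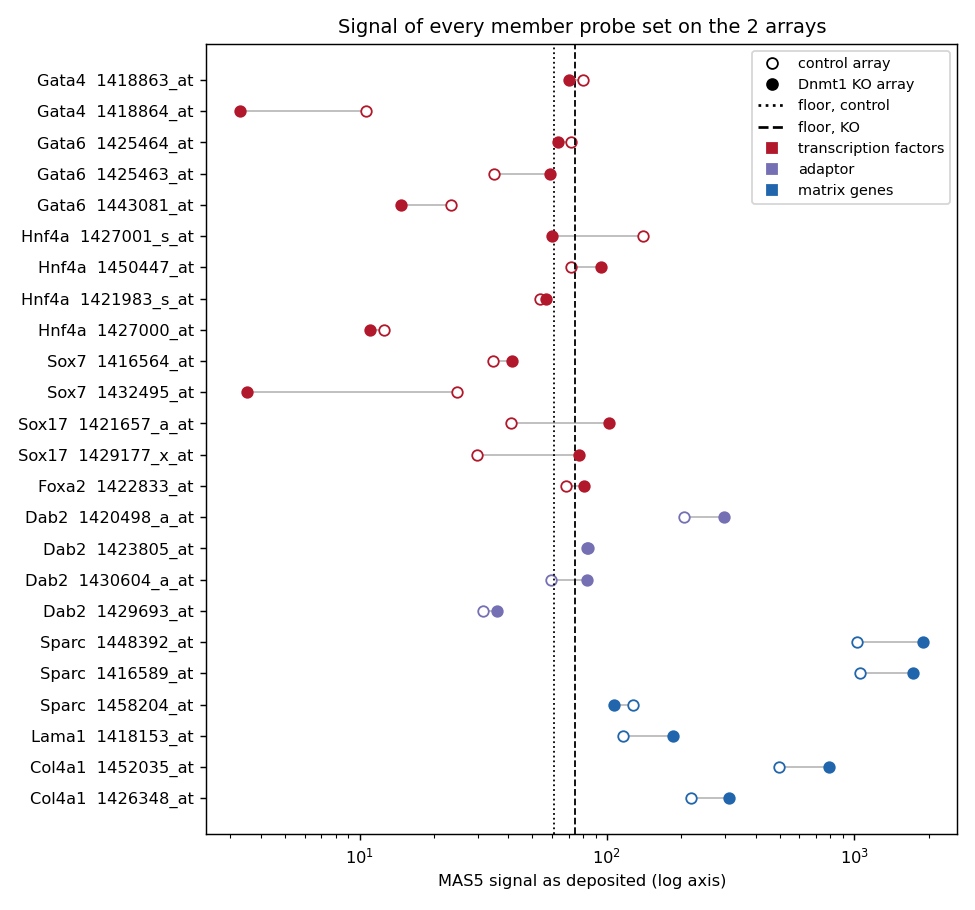
MAS5 signal of each of the 24 probe sets (one row each, log axis) on the control array (open circles) and the Dnmt1 KO array (filled circles), coloured by class, with the floor of each array as a vertical line. The transcription factor signals lie around and left of the floors, with the highest at 140.5 (Hnf4a, control) and 102 (Sox17, KO), while all 6 matrix probe sets lie to the right of both.

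Gata6, a zinc finger factor needed for primitive endoderm to form, lies on chromosome 18. Its brightest probe set, 1425464_at, had signals of 71.5 (control) and 63.4 (KO), which passes from just above the floor to below it. The other probe sets of the gene went from 35.1 to 59 and from 23.4 to 14.7, below both floors and in opposite directions. The brightest gave a log2 ratio of -0.37 or less, a bound that comes from the shift, since the same bound was 0.053 as deposited.

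Gata4, its relative on chromosome 14 that acts later in the same lineage, went from 80.3 to 70.6 on its brightest probe set, 1418863_at, and from 10.6 to 3.3 on the other. Within each array the brighter one moved from the 56.9 to the 48.8 percentile of all probe sets. Its ratio was -0.54 or less when centred and -0.11 or less as deposited. Neither GATA factor thus had a probe set clear of the floor on the KO array.

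Sox7 and Sox17 belong to the same Sox subgroup, and both serve endoderm and endothelium. Sox7, on chromosome 14, had signals of 34.6 and 41.5 on one probe set and of 24.7 and 3.5 on the other, on the control and KO arrays. Both probe sets were below both floors, so Sox7 has no ratio. Sox17, on chromosome 1, was below the floor on the control array and above it on the KO array with both of its probe sets. The signal of 1421657_a_at went from 41 to 102, and that of 1429177_x_at from 29.8 to 77.3. The brighter moved from the 39.7 to the 57.2 percentile and the dimmer from the 32.3 to the 50.9, which is the only case among the 6 factors in which every probe set was higher on the KO array and crossed its floor. Of all probe sets below the control floor, 6.95% were above the KO floor.

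With the control signal raised to its floor, the Sox17 ratio was at least 0.32 on the brighter probe set and at least -0.08 on the other, neither of which reached 2-fold. With no floor, the brighter gave 0.92, but that value rests on a control signal in the dimmer part of the array. In Affymetrix naming, the ending x_at marks probe sets with probes that can match other sequences, and a_at marks probe sets shared by transcripts of 1 gene.

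Foxa2, a forkhead factor of visceral and definitive endoderm on chromosome 2, has 1 probe set, 1422833_at. It gave 68.4 (control) and 80.9 (KO), just above both floors, with a log2 ratio of -0.18 centred and 0.24 as deposited. Its rank within each array was almost level, at the 53.0 and the 52.0 percentile.

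Hnf4a, a nuclear receptor of visceral endoderm and liver, also on chromosome 2, was the only one of the 10 genes that reached 2-fold after centring, and its probe sets disagreed. The brightest, 1427001_s_at, went from 140.5 to 60.1, below the KO floor, and was at least 2.54-fold lower (log2 ratio -1.35 or less, or -0.92 or less as deposited). Another, 1450447_at, went from 71.5 to 95.1, with a log2 ratio of -0.01. The remaining probe sets went from 53.9 to 56.5 and from 12.6 to 11, below both floors. Over the probe sets with a ratio, the mean was -0.68 ± 0.94 (SD between 2 probe sets), a spread larger than the mean. The ending s_at marks a probe set whose probes can match more than 1 transcript.

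Dab2, on chromosome 15, encodes an adaptor that links cargo receptors such as megalin to clathrin and is a marker of primitive endoderm. Its brightest probe set, 1420498_a_at, had signals of 205.8 and 296.3, clear of both floors, and a log2 ratio of 0.10. Of the others, 1 went from 82.8 to 84 (-0.40), 1 from 59.4 to 82.9 (at least 0.02) and 1 from 31.5 to 35.8, below both floors. The 3 with a ratio averaged -0.09 ± 0.27 (SD), closer to 0 than its own spread.

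The matrix genes were above both floors on all 6 of their probe sets, with signals from 116.7 to 1052.8 in the control and from 107 to 1904 in the KO culture. Sparc, a collagen-binding protein that parietal endoderm makes in large amounts and fibroblasts make too, lies on chromosome 11. Its brightest probe sets went from 1030.7 to 1904 and from 1052.8 to 1723.1, with log2 ratios of 0.46 and 0.29. The dim remaining one, 1458204_at, went the other way, from 127.8 to 107 (-0.68). The mean over all 3 was 0.02 ± 0.61 (SD), against 0.37 ± 0.12 (SD) over the bright pair, a split made after the values were seen. Of the genes above both floors, 7.37% had a higher ratio than the 0.46 of the brightest probe set.

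Lama1, on chromosome 17, encodes the alpha chain of laminin-111, the first laminin of the embryo. Its 1 probe set, 1418153_at, went from 116.7 to 184.8, with a log2 ratio of 0.24 centred and 0.66 as deposited. Col4a1 encodes a chain of the collagen IV network. Its probe sets went from 497.7 to 791.2 and from 219.9 to 311.1, with log2 ratios of 0.24 and 0.08, a mean of 0.16 ± 0.12 (SD). The ratios of Lama1 and of the brightest Col4a1 probe set were about as large as the SD of 0.24 between probe sets of 1 gene, and 20.4% and 19.9% of genes had higher ones.

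**Figure D2:**
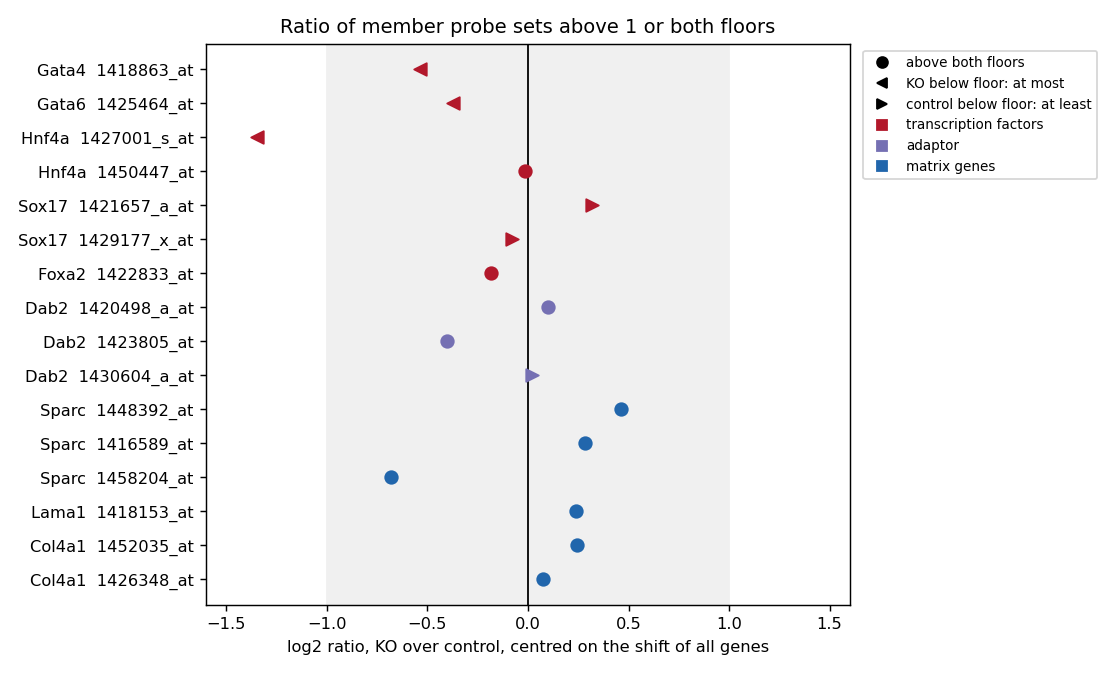
Centred log2 ratio of KO over control for the 16 member probe sets above the floor on at least 1 array; triangles are bounds, and the grey band spans less than 2-fold. The Hnf4a probe set at -1.35 or less is the one outside the band, and another Hnf4a probe set lies at -0.01.

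By class, and with each gene represented by its brightest probe set, 1 of 6 transcription factors (Foxa2) and 3 of 3 matrix genes were above both floors, against 60.4% of all genes on the array. Of the other factors, 4 were above 1 floor and 1, Sox7, was below both, as 32.8% of all genes were. The 5 factors with a ratio had a median of -0.37 (range -1.35 to 0.32), in which 4 of the 5 values are bounds. The matrix genes had a median of 0.24 (range 0.24 to 0.46), and the 12226 genes measured on at least 1 array had -0.0049. As deposited the medians were 0.053, 0.67 and 0.42. The median of the factors thus lay below and that of the matrix genes above the median gene, by amounts for which 1 array per culture gives no test. Sox17, at least 0.32, was the factor above it. The factors were dimmer than the matrix genes, and the amounts depend on how the shift is taken at low signal. With lowess, which lets the shift vary with signal, the medians were -0.24 for the factors and 0.26 for the matrix genes.

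Of the 9 member genes with a ratio, none was 2-fold or more higher and 1, Hnf4a, was 2-fold or more lower after centring. Among all measured genes, 1.09% were that much higher and 0.532% lower, together 1.62%. As deposited, no ratio or bound of the 9 reached 2-fold in either direction, against 4.92% of genes higher and 0.0982% lower. For Hnf4a (at most -0.92) and Sox17 (at least 0.74) these are bounds, and the true ratio can be past 2-fold. Of the 16 member probe sets with a ratio, 1 was 2-fold lower and none higher, against 0.561% and 0.988% of all probe sets. Of the 9 genes, 5 lay above the shift, against 49.2% of all genes measured.

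Col4a1 lies on chromosome 8, whose genes had lower ratios than the rest. The 601 genes of this chromosome above both floors had a median log2 ratio of -0.37, and 90.3% of them lay below the shift, against a median of 0.01 and 47.6% for the 10365 such genes placed on other chromosomes. As deposited these medians were 0.056 and 0.44. Col4a1 lay above the shift at 0.24, and 18 of the 601 had a higher ratio. Set against its own chromosome's median, Col4a1 was 0.61 higher on the brightest probe set and 0.44 on the other. Col4a2, its head-to-head neighbour, went from 194.6 to 286.4, with a ratio of 0.13, or 0.50 above the chromosome's median, and 5.66% of the chromosome's genes were higher. Both collagen IV chains were thus near the upper end of chromosome 8, while on the other chromosomes 21.0% and 32.8% of genes had higher ratios than Col4a1 and Col4a2. The part that the shift of the chromosome has in the Col4a1 value was not tested.

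**Figure D3:**
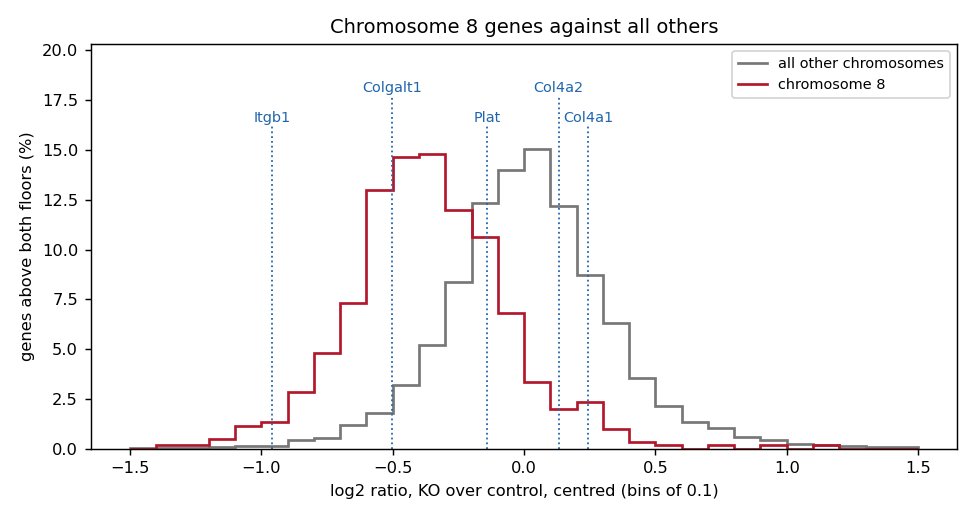
Share of genes above both floors (vertical axis, percent) in bins of 0.1 of the centred log2 ratio, for chromosome 8 (red) and all other chromosomes (grey). Dotted lines mark genes of the lists on chromosome 8: Col4a1 (0.24) and Col4a2 (0.13) lie right of most of the red curve, Itgb1 (-0.96) left of it.

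Other basement membrane genes lay on both sides of the shift. The list held 39 genes on the array, of which 28 had a ratio, 10 above and 18 below the shift. That is 35.7% above, against 49.2% of all genes measured. As deposited, 75% of the list and 90.5% of all genes were higher on the KO array. The list had a centred median of -0.21 and 0.21 as deposited. The median over all measured genes was -0.0049 centred and 0.42 as deposited, so the list's median was the lower one on both scales. None reached 2-fold after centring, as 1.62% of all genes did, while 4 were 2-fold higher as deposited, against 4.92% of all genes. The partners of Lama1 in laminin-111, Lamb1 (595.4 to 844.2) and Lamc1 (778.2 to 1005.5), had ratios of 0.08 and -0.06, and Lamc1 had 0.37 as deposited. Averaged over probe sets, Lamb1 had -0.19 ± 0.27 (SD, 3 probe sets) and Lamc1 -0.12 ± 0.09 (SD, 2 probe sets). The nidogens, which bridge laminin and collagen IV, lay above the shift. Nid1 went from 387.2 to 875.3, a ratio of 0.75 on its brightest probe set and of 0.49 ± 0.38 (SD) over 2, and Nid2 went from 1046.4 to 1808.3 (0.36). The heparan sulfate proteoglycan Hspg2, or perlecan, had -0.24 centred and 0.19 as deposited. Fbln1, a fibulin of basement membranes, had the highest ratio of the list at 0.99, with 0.80 ± 0.40 (SD) over 3 probe sets. Smoc1, a secreted relative of Sparc, had -0.79. Itgb1, the beta chain of the main laminin and collagen receptors, had the lowest at -0.96 (1728.2 to 1193.7), and lies on chromosome 8.

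Of genes that fold and modify collagen, 14 were on the array and 13 had a ratio, 12 above the shift and 1 below (92.3% above, against 49.2% of all genes measured). As deposited, 92.3% of the list and 90.5% of all genes were above 0, and averaged over probe sets 10 of the 13 were above the shift. The list had a centred median of 0.26 and 0.69 as deposited. None reached 2-fold after centring (1 higher as deposited, against 4.92% of all genes). The prolyl hydroxylase subunit P4ha2 went from 131.8 to 271.7 (0.62), P3h1, a prolyl 3-hydroxylase, had 0.47 and its partner Crtap 0.44. Serpinh1, the collagen chaperone Hsp47, had 0.12 on its brightest probe set and -0.04 ± 0.22 (SD) over 2. The one below was Colgalt1, a collagen galactosyltransferase on chromosome 8, at -0.50, where 68.9% of the chromosome's genes were higher.

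**Figure D4:**
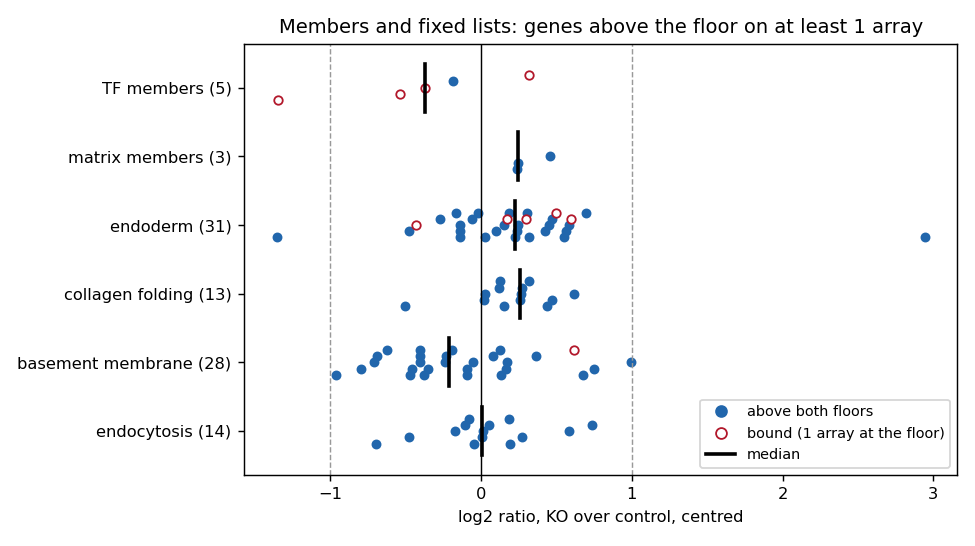
Centred log2 ratio for the transcription factor and matrix members and for the genes of 4 lists, each point a gene above the floor on at least 1 array (number in brackets) and each bar the median. The matrix members and the collagen folding genes lie mostly right of 0 (medians 0.24 and 0.26), and the basement membrane list mostly left of it (median -0.21).

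Among other genes of primitive, visceral and parietal endoderm, 51 were on the array. Of these, 20 were below both floors, as were 32.8% of all genes. Of the 31 with a ratio, 21 (67.7%) lay above the shift, against 49.2% of all genes measured. As deposited, 90.3% of the list and 90.5% of all genes were higher on the KO array. After centring, 1 was 2-fold or more higher and 1 lower, against 1.09% and 0.532% of all genes. As deposited these counts were 4 and 0, against 4.92% and 0.0982%. The median was 0.22 centred and 0.65 as deposited. The higher one was Rhox5, a homeobox gene on the X chromosome known from visceral endoderm as well as germ cells, at 2.94 (314.1 to 3245.8). The lower one was Spink1, a trypsin inhibitor, at -1.36 (430.4 to 225.9). The next largest among genes above both floors were Fxyd3, an ion pump regulator, at 0.70, and Sox21, a Sox family factor, at 0.58. Pdgfra, a receptor that marks primitive endoderm early, was below both floors (47.2 and 64.8).

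Most of the listed markers of the visceral derivative were below both floors. Afp (1.3 and 48.8), Ttr (7.1 and 6.4), Apoa1 (2.3 and 4.4) and Apoa4 (3.1 and 4.4) were among the 5 of 8 visceral markers there. The share of all genes below both floors was 32.8%. Rbp4 (111.2 and 174.3, ratio 0.22) was above both floors, as was Amn, described below. Ihh went the other way, from 74.6 to 49.5, below the KO floor, with a ratio of -0.43 or less. Of 6 parietal markers, Thbd was below both floors, and the 5 with a ratio had a median of 0.10. Tfpi went from 635.8 to 1168.1 (0.45, with 0.76 ± 0.22 SD over 4 probe sets), Srgn from 5.9 to 115.2 (at least 0.49), and Plat, Pth1r and Snai1 had -0.14, -0.02 and 0.10. Of the streak and definitive endoderm markers, 4 of 6 were below both floors, and Eomes and Mixl1 had -0.27 and -0.42. Over 2 probe sets Eomes had -0.10 ± 0.24 (SD). All 8 ES cell markers were above both floors, with Pou5f1 at 2689.7 and 3297 and Sox2 at 5436.6 and 6962. Nanog (592.5 to 1965.5, ratio 1.30) and Esrrb (361.8 to 1098.1, 1.18) were 2-fold higher on their brightest probe sets. Of all genes measured, 1.09% were that much higher. Over 3 probe sets Esrrb had 0.84 ± 0.40 (SD), under 2-fold. The lowest ratio was that of Utf1 (-0.62, with -0.33 ± 0.41 SD over 2 probe sets).

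Dab2 works with cargo receptors that were measured too. Lrp2, or megalin, went from 718.6 to 694.1 with a ratio of -0.48, and its 3 probe sets averaged -0.58 ± 0.14 (SD). Its partner Cubn was below both floors (56.3 and 71.9), and Amn, which brings Cubn to the surface, had 0.19 (120.7 to 184.6). Of the endocytosis list, 14 of 15 genes on the array had a ratio. Above the shift were 8 (57.1%), against 49.2% of all genes measured. As deposited, 85.7% of the list and 90.5% of all genes were higher on the KO array. None was past 2-fold after centring (2 higher as deposited, against 4.92% of all genes). The median was 0.0088 centred and 0.43 as deposited. Lrpap1, the chaperone of megalin, had 0.74 on its brightest probe set and 0.32 ± 0.41 (SD) over 4. Dab1 had -0.70, with -0.51 ± 0.37 (SD) over 5 probe sets, and the motor gene Myo6 had 0.59.

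Sparc and collagen genes are also made by fibroblasts, which can be present as feeder cells. Of 16 fibroblast markers, 6 were below both floors, among them Col3a1, Dcn, Lum and Pdgfrb, against 32.8% of all genes. Col1a1 was near the floors at 94.3 and 80.2. Others were above both floors, among them Acta2 (527 and 695.1), Mmp2 (554.7 and 502.7), Thy1 (340 and 549.8), Col1a2 (172.9 and 190.9) and Tagln (707.9 and 345.9). The summed signal over the 16 was 3012.1 in the control and 3203 in the KO culture. Their median ratio was -0.15 (range -1.46 to 0.37). None was 2-fold higher and 1, Tagln, was 2-fold lower, against 1.09% and 0.532% of all genes measured. Of 4 trophoblast markers, Tfap2c and Krt7 were 2-fold higher, at 1.23 and at least 1.17, against 1.09% of all genes measured. Cdx2 (70.7 and 54.1) had -0.36 or less and Elf5 (7.4 and 7.5) was below both floors. The summed signal over the 4 genes was 582.6 and 1651.6, of which Tfap2c alone gave 446.3 and 1405.5. Summed signals are as deposited, with the shift not taken out. Of 4 endothelial markers, a cell type that expresses Sox7 and Sox17, Pecam1 had 0.60, Kdr 0.16 and Cdh5 at least -0.09. Tie1 was below both floors. The summed signals were 239.8 and 449.5, of which Pecam1 gave 101.6 and 206.6 and Kdr 109.8 and 164.5. The part of such cells in the values of the 10 genes was not tested.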

How the data were processed

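The deposited values were MAS5 signal intensities, 1 per probe set and array, made by the authors with MAS5 per the submitters' processing notes. Neither version, target intensity, scaling nor detection calls were given in the sources used here. Arrays give no read depth, and their number limits the precision. Of 45101 probe sets, 64 Affymetrix controls were left out. Probe sets with 1 gene symbol (34945) were named from the platform annotation, updated by gene identifier to RefSeq GRCm38.p6 (34741 matched).

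Signals below an array's median were raised to it, log2 ratios were taken, and the median ratio of genes above both floors was subtracted. Each gene's brightest probe set, by mean floored log2 signal, stood for it, and 2-fold was counted as different. With 1 array per group there was no test. The members, lists and settings were chosen with earlier results of these data known. Named from each of the 4 pathway lists were the genes past 2-fold, the 4 largest ratios above both floors and set partners of the members. The genes named from the cell type marker lists, and Dag1, were chosen after their values were seen. Alternatives were quantile normalization, lowess (span 0.4), no centring, centring outside chromosome 8, other floors, the mean over probe sets and other fold thresholds. The steps were tested on simulated data in which changes were set only into genes well above the floors. Signals near the floor were not covered. Python 3.11.15, pandas 2.3.3, numpy 2.4.6 and statsmodels 0.14.6 were used.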

Additional observations from a re-analysis of the deposited data

How the results depend on the processing

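No paired analysis was possible because there was 1 array per group. A value was taken as moved when it changed by more than the SD of 0.24 between probe sets. As deposited, with no centring, the median log2 ratio of the transcription factors was 0.053 and of the matrix genes 0.67, Col4a1 was 0.67, and the number of member genes at least 2-fold different was 0, with bounds taken at their value. That number was also 0 with the floor at the 75th percentile, where no transcription factor had a ratio and 3 member genes did, with the mean over all probe sets, and at a 3-fold threshold. It was 1, Hnf4a, in the other 6 settings. Relative to the median of chromosome 8 genes, Col4a1 was 0.61, and in the other 7 settings it ran from 0.20 to 0.28. The median of the matrix genes ran from 0.20 to 0.33 and that of the transcription factors from -0.39 to -0.18 in the settings other than the uncentred one. Among single genes, Hnf4a ran from -1.63 with the floor at the 25th percentile to -0.37 with the mean over probe sets. Sparc was 0.06 with that mean, and Sox17 was 0.92 with no floor. The mean setting took in probe sets below both floors, with each signal raised to its floor. Over the Hnf4a probe sets with a ratio alone, the mean was -0.68. The factor median of -0.18 also came from the mean setting. Signals near the floor limit the factors, and no call of presence could be made for them.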

Other observations

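Integrins, cell surface receptors for matrix proteins, are described as a group picked out after its values were seen. Of 7 integrin genes in the basement membrane list, 5 had a ratio, and 4 of the 5 lay below the shift with a median over the 5 of -0.69, or -0.27 as deposited. Itga3, a laminin-binding alpha chain on chromosome 11, was lower on all 3 of its probe sets, which went from 1212 to 996.2, from 553.9 to 356.3 and from 178.9 to 73.3, with log2 ratios of -0.71, -1.06 and -1.69 or less. Itgb1, its beta partner on chromosome 8, was lower on its 3 probe sets with a ratio (-0.96, -0.75 and -0.65). The median of its chromosome's genes also lay below the shift. Itga6, another laminin-binding chain, went from 2390.2 to 2339.7 (-0.46) on its brightest probe set and from 806.9 to 974.9 (-0.15) on the other. Itga5, a fibronectin receptor chain, went from 269.5 to 224.1 (-0.69) and from 191.1 to 230 (-0.16). The dimmer probe sets of both were thus higher on the KO array as deposited. Itgav (632.9 to 927.5, 0.13) lay above the shift, as did Dag1, a laminin receptor that is no integrin (1173.4 to 1773.7, 0.17). Over 4 probe sets Dag1 had 0.03 ± 0.22 (SD). On the brightest probe sets, the signs of the 5 integrins held under all 4 other scalings. Averaged over all probe sets, with signals below a floor raised to it, 1 of the 5 was 2-fold lower and the median was -0.26 centred.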
